A study of Mus musculus with 6 samples.

Results

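The p53 response and the mitochondrial apoptosis machinery were examined in mouse embryonic fibroblasts that lack Asciz, through 41 genes: p53 itself and its direct targets, pro-survival and pro-death members of the BCL2 family, and the caspases and apoptosome proteins that they control. Members were found by matching the target name printed on the array, ignoring case, and the matching rule used no measured value, although the list was drawn up with earlier results of these data known. Of the 41 genes 39 had a probe under that name, 35 were detected on at least 3 of the 6 arrays, and each was represented by its brightest detected probe. These 35 stand among 12824 genes that passed the same filter. The fibroblasts were primary cells from embryos at embryonic day 12.5 on a C57BL/6 background, passaged once in serum-containing medium, with 3 cultures of genotype Asciz-/- (knockout) and 3 of genotype Asciz+/+ (wild type), each from its own embryo. Asciz is now called Atmin; its protein is a transcription factor with zinc fingers that was first described as a partner of the DNA damage kinase ATM. No damaging agent is named for any culture, so all values are basal levels, and the genotype was that of the embryo rather than induced in culture. Total RNA of each culture was hybridised to 1 bead array, and levels are normalized log2 intensities, on which a difference of 1 is a doubling. The intensity of a probe depends on its sequence, so levels are compared between cultures and not between genes.

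p53 is a transcription factor that is held at a low level by the ubiquitin ligase MDM2 and is stabilised when DNA is damaged or growth signals are abnormal. It then raises genes that stop the cell cycle, repair DNA, or start apoptosis through BH3-only proteins. These bind and neutralise pro-survival BCL2 proteins, or directly activate BAX and BAK1, which open the outer mitochondrial membrane, so that released cytochrome c assembles APAF1 and caspase 9 into the apoptosome. Primary mouse fibroblasts express genes of each of these steps, though not every gene, and p53 limits how long they divide in culture.

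By the names on the array, the first group held TRP53 (p53) and the targets CDKN1A, MDM2, CCNG1, SESN1, SESN2, GADD45A, BTG2, TRP53INP1, ZMAT3, PLK2, PHLDA3, EI24, PERP, AEN, TNFRSF10B, FAS, GDF15, EDA2R, POLK and RRM2B, together with BBC3 (PUMA), PMAIP1 (NOXA) and BAX, which are p53 targets and BCL2 proteins at once and are counted in both groups. The pro-survival group held BCL2, BCL2L1 (BCL-XL), BCL2L2 (BCL-W) and MCL1. The pro-death group held BBC3, PMAIP1, BAX, BAK1, BOK, BAD, BID, BIK, HRK and BCL2L13, and the last group CASP8, CASP9, APAF1, XIAP, DIABLO and CYCS. No probe carried the names AEN and XIAP. BTG2, PERP, BIK and HRK were not detected on any of the 6 arrays and have no level here. For all 35 genes tested the probe used was detected on all 6 arrays.

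p53 binds a 20-base site made of a pair of 10-base half-sites with a spacer of up to 13 bases. The promoter windows of RefSeq on GRCm38.p6, 300 bases that run from 250 before to 50 after each transcript start, were searched on both strands for the published p53 half-site consensus, a palindrome, and 34 of the 41 genes had a window. The stretches below show where half-site matches lie in targets whose values follow. Cdkn1a and Mdm2 were taken as the classical targets and Bax as the target whose groups separated upward. Ccng1 was taken as a target with a difference near 0 by its brightest probe, and Gadd45a and Sesn1 as targets with wide spread. Zmat3, the target whose groups separated downward, had no window. Each is written 5′ to 3′ on the strand of its gene, and capitals mark a match to the half-site.
Cdkn1a, chr17:29090876-29090967, plus strand: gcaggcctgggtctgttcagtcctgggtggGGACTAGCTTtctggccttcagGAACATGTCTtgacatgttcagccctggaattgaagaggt
Mdm2, chr10:117710905-117710974, minus strand: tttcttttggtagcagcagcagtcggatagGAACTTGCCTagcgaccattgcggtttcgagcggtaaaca
Ccng1, chr11:40755432-40755501, minus strand: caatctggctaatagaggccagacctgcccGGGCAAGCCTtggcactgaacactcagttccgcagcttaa
Bax, chr7:45467060-45467129, minus strand: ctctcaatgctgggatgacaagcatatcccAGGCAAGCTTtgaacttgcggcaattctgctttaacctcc
Gadd45a, chr6:67037408-67037477, minus strand: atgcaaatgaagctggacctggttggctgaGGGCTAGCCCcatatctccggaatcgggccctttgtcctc
Sesn1, chr10:41887236-41887305, plus strand: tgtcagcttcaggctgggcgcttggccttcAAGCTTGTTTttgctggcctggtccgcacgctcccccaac
Of the 17 p53 targets with a window 9 held at least 1 half-site, or 52.9%, against 9.55% of the 27025 genes with a window. None of the 16 other members did, apart from Trp53 itself, which is counted in neither number and held 1 match 75 bases before its start. Only Cdkn1a, with half-sites 73 and 51 bases before the upstream of its annotated starts, held a pair close enough for a full site, as did 20 genes, or 0.0740%, of all. The window of a further Cdkn1a start held no match, and Sesn1 and Polk likewise had a further start without a match. A match is a description of letters and does not show binding, and many p53 sites lie outside such a window.

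**Figure D1:**
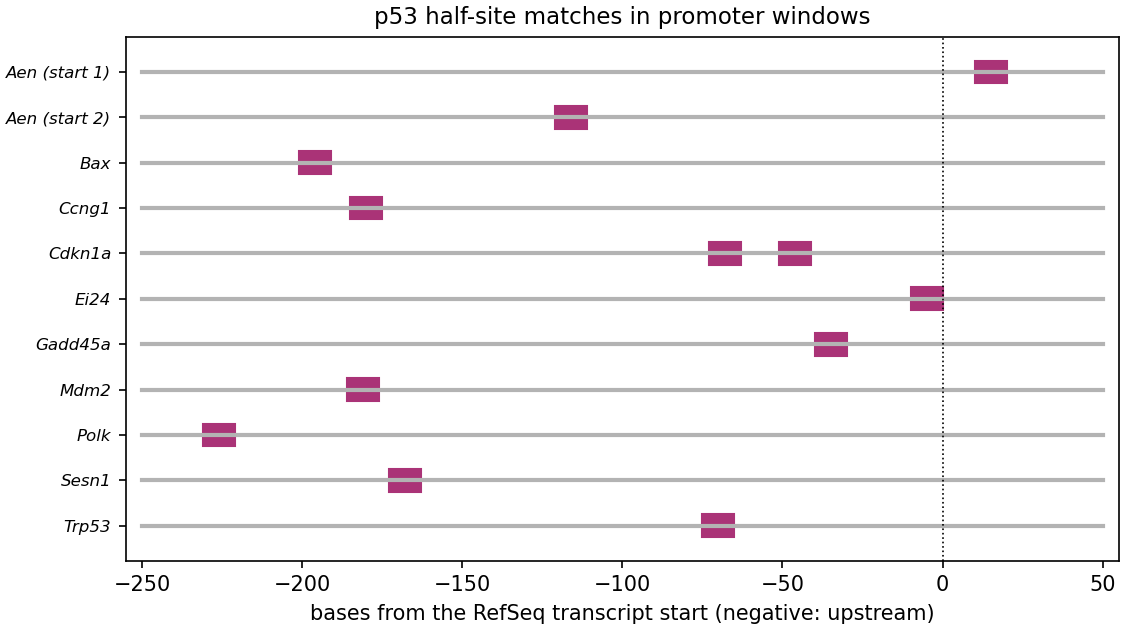
Positions of p53 half-site matches (purple boxes, 10 bases each) in the promoter windows (grey lines) of the 9 p53 targets that hold one and of Trp53, by distance in bases from the RefSeq transcript start (dotted line); Aen has 2 annotated starts that share 1 match. The matches lie from 231 bases before the start (Polk) to the bases just after it (Aen, start 1), and only Cdkn1a holds 2. Windows of further Cdkn1a, Sesn1 and Polk starts held no match and are not shown.

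The arrays were alike in quality. Median intensity lay between 88.7 and 97.9, 17580 to 18794 probes per array were detected, and a median of 43 beads read each probe. Knockout culture 3 correlated least with the others (mean 0.980, against 0.985 to 0.989), and wild-type culture 1 was the only one with Xist RNA and without Y-linked transcripts, so that sex was not balanced between the groups. Atmin itself read 8.70, 8.87 and 8.77 in the wild-type cultures and 6.93, 6.95 and 6.47 in the knockout cultures, so that knockout minus wild type was -1.99 (SE 0.157; adjusted p = 0.0073 with limma). With the mean of its detected probes it was -1.28 (adjusted p = 0.0589), and without wild-type culture 1, 2 or 3 it was -2.03, -1.95 and -1.999 with adjusted p of 0.0696, 0.0686 and 0.0844, none of them a call. Of 15 fibroblast markers 14 were detected, with a median difference of 0.02. Other markers moved with genotype: all 11 detected macrophage and leukocyte target names, of 24 listed, were lower in the knockout (median -1.04). Their mean level was 6.15, 6.82 and 6.43 in wild type against 5.39, 5.44 and 5.80. The lysozyme names LYZ, Lyz2 and LYZS were counted separately among these 11, which may therefore stand for fewer genes. Of 19 skeletal muscle genes 17 were higher (median 0.67; 7.29, 7.62 and 7.89 against 7.94, 8.29 and 8.29). All 16 mitosis genes were lower (median -0.37; 9.32, 9.10 and 9.09 against 8.81, 8.93 and 8.66), as were 21 of 22 replication genes (median -0.25). Smaller marker lists had 8 detected epithelial genes (median 0.17), 7 neural (0.40), 4 endothelial (0.32) and 1 erythroid gene (-0.03). No gene of these 8 lists passed the threshold on its own, and the part of these cell types and of the cell cycle in the differences below was not tested.

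No member passed the test for a change with loss of Asciz. Over all genes 7 of 12824, or 0.0546%, passed an adjusted p of 0.05 (4 higher and 3 lower in the knockout), and none of the 35 members did; the smallest adjusted p of a member was 0.620. At an unadjusted p of 0.05 the members numbered 3 of 35, or 8.57%, against 7.75% of all genes, and they were Pmaip1, Bax and Zmat3. The 3 knockout cultures lay wholly apart from the 3 wild-type cultures for 3 members, again 8.57%, against 14.4% of all genes: Bax and Casp8 were higher and Zmat3 was lower in the knockout. The share of members past either line was thus near or under that of the array as a whole. In these bulk RNA samples, fewer cells that express a gene and less RNA of it per cell cannot be told apart.

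The sizes of the differences were like those of other genes. All 35 members differed by less than 1.5-fold between the group means, as did 97.2% of all genes. Of the members 33, or 94.3%, differed by less than 1.25-fold, against 86.7% of all genes; Pmaip1 and Gdf15 were the other two. The 95% confidence interval lay within 1.5-fold in both directions for 28 of 35 members, or 80.0%, against 66.0% of all genes. It lay within 2-fold for 31 of 35, or 88.6%, against 93.5% of all genes; the rest were Pmaip1, Gdf15, Sesn1 and Gadd45a. Only 1 member, Polk, had an interval within 1.25-fold, or 2.86% against 7.81% of all genes, so changes of that size could not be resolved with 3 cultures per genotype. The members' median SE was 0.144, against 0.149 over all genes. Their median level was 9.56, against 7.67 over all genes, and the shares compared here were not matched for level.

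**Figure D2:**
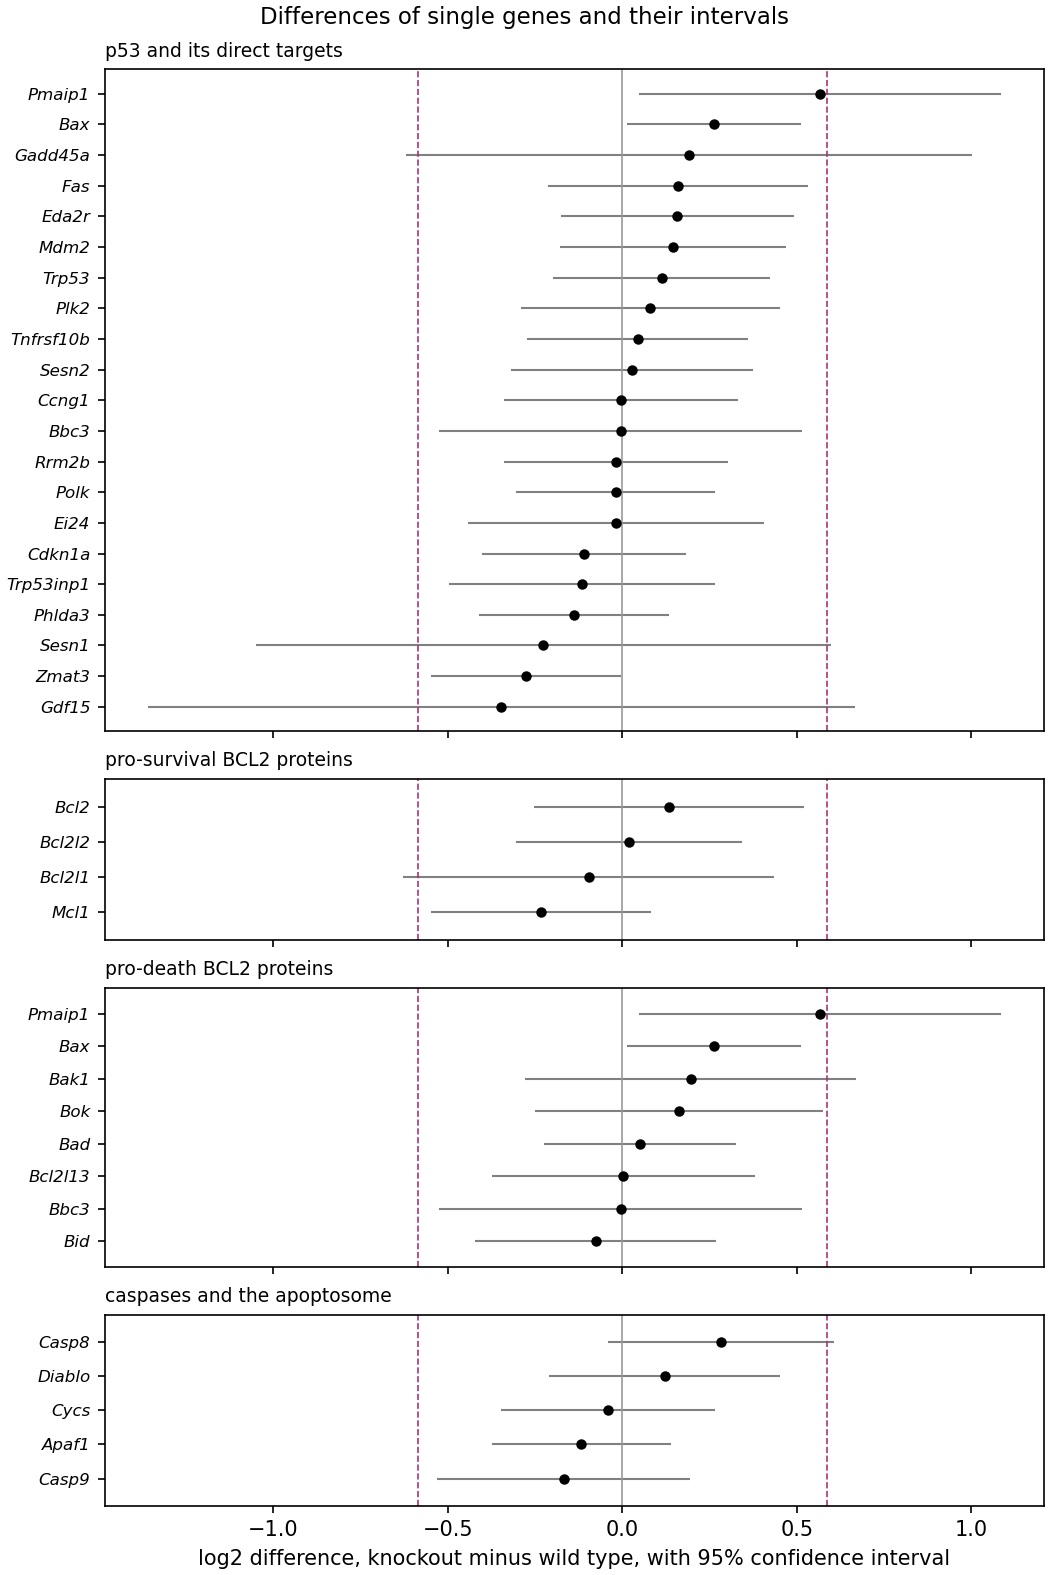
Log2 difference of each tested member, knockout minus wild type (point), with its 95% confidence interval (line), by role; dashed lines mark 1.5-fold. The intervals of Pmaip1 and Bax lie above 0 and that of Zmat3 just below it before adjustment for the number of genes tested, and 28 of 35 lie between the dashed lines.

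The p53 gene and its most used reporters did not differ between genotypes beyond the spread of cultures. Trp53 read 10.27, 10.19 and 10.41 in wild-type cultures 1, 2 and 3 and 10.23, 10.57 and 10.40 in knockout cultures 1, 2 and 3. The groups overlapped, with means of 10.29 ± 0.114 and 10.40 ± 0.173 (SD, n = 3 each) and a difference of 0.11 (SE 0.134, 95% interval -0.20 to 0.42), which became -0.08 under scaling of the arrays to one common median. p53 is controlled mostly at the level of protein stability, which these arrays do not measure, so its targets are the closer readout of its activity.

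Cdkn1a encodes p21, the inhibitor of cyclin-dependent kinases through which p53 arrests the cell cycle. It read 13.15, 13.04 and 13.32 in wild type and 13.18, 13.02 and 12.98 in the knockout. These values interleave, and the difference was -0.11 (SE 0.126, interval -0.40 to 0.18, adjusted p = 0.850 by limma). Mdm2, the p53 ubiquitin ligase and the target through which p53 restrains itself, read 12.17, 12.08 and 12.43 against 12.45, 12.45 and 12.22. Here too the groups overlapped, and the difference was 0.15 (SE 0.139, interval -0.18 to 0.47, adjusted p = 0.829 by limma); a further Mdm2 probe gave -0.02.

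Of the remaining targets 7 with overlapping groups differed by between -0.14 and 0.08. Ccng1 (cyclin G1) differed by -0.004, Rrm2b, the p53-induced subunit of ribonucleotide reductase, by -0.02 and Polk, a translesion DNA polymerase, also by -0.02. Sesn2, a sestrin that restrains mTORC1, differed by 0.03, Plk2, a polo-like kinase, by 0.08, Trp53inp1 by -0.12 and Phlda3, an inhibitor of AKT, by -0.14. Further probes gave -0.04 and 0.21 for Ccng1, 0.22 for Trp53inp1, 0.06 for Phlda3 and 0.02 for Sesn2. The median absolute difference of all genes was 0.131. Among receptors that p53 induces, also with overlapping groups, Fas differed by 0.16, Eda2r by 0.16 and Tnfrsf10b, the mouse TRAIL receptor, by 0.04. Under common-median scaling Fas was at -0.07 and Tnfrsf10b at -0.18, and with the mean of its probes Tnfrsf10b was at -0.025. Ei24 differed by -0.02. Eda2r is X-linked, and the XX wild-type culture read 5.15 for it, within the range of the others.

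Zmat3, which encodes a zinc-finger RNA-binding protein, was the target whose groups separated downward. It read 10.66, 10.54 and 10.63 in wild type and 10.23, 10.47 and 10.31 in the knockout, so that every knockout culture lay below every wild-type culture. The difference was -0.28 (SE 0.117, interval -0.55 to -0.004), with an unadjusted p of 0.048 and an adjusted p of 0.635 by limma. It was not a call, and 962 of the 12824 genes separated downward.

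Over the first group as a whole, 10 of 21 genes were higher and 11 lower in the knockout, with a median difference of -0.004, against -0.007 over all genes; scaling to a common median moved the first to -0.185 and the second to -0.173. The 8 tested targets with a half-site in the promoter window ranged from -0.23 (Sesn1) to 0.26 (Bax), with 3 above and 5 below 0. Aen, an exonuclease that p53 induces and whose window also holds a half-site, was on the array under the older name ISG20L1, where its difference was -0.04 (SE 0.159).

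**Figure D3:**
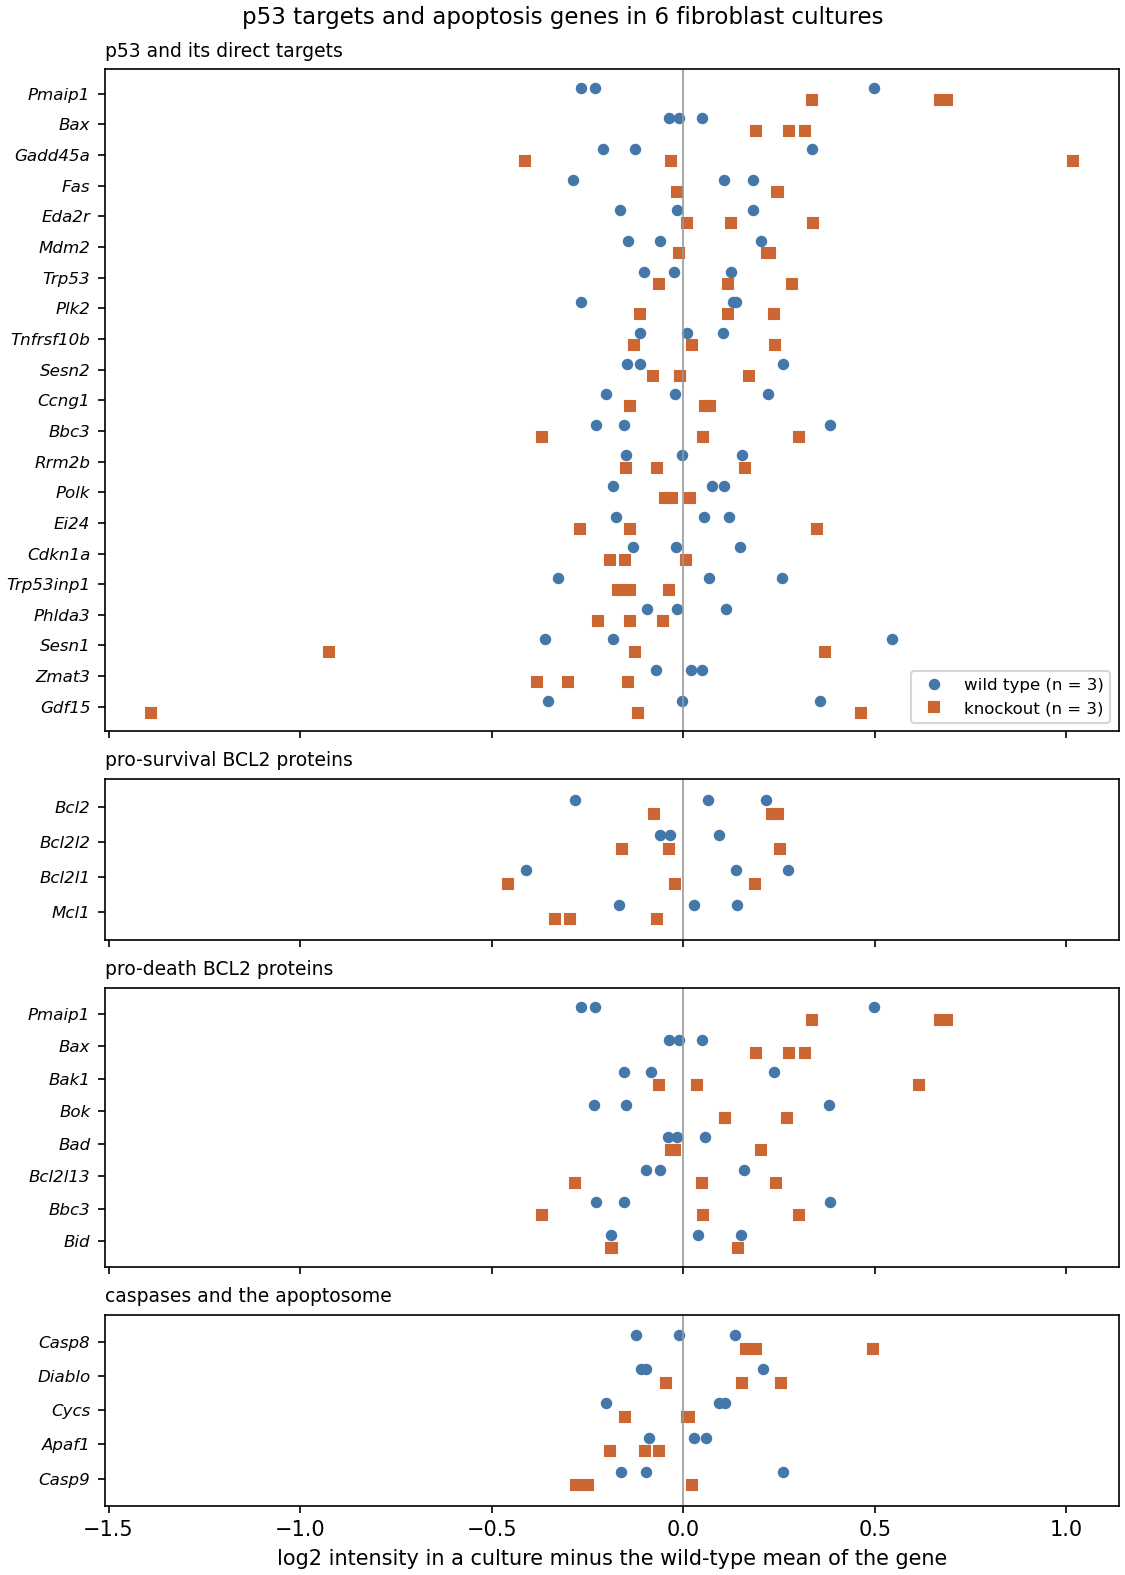
Level of each tested member in each culture, as log2 intensity minus the wild-type mean of that gene, by role (blue circles: 3 wild-type cultures; orange squares: 3 knockout cultures; Pmaip1, Bax and Bbc3 appear in 2 panels). Only Bax, Zmat3 and Casp8 show no overlap, and Gdf15, Gadd45a and Sesn1 spread most.

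The pro-survival genes did not move together. Mcl1, a short-lived protein that fibroblasts need to survive many stresses, read 10.92, 11.03 and 10.72 in wild type and 10.82, 10.60 and 10.56 in the knockout. The groups overlapped by 1 knockout culture, and the difference was -0.23 (SE 0.135, interval -0.55 to 0.08, adjusted p = 0.709 by limma). Bcl2, the founding member of the family, read 6.66, 6.16 and 6.51 against 6.37, 6.69 and 6.68. The difference of 0.13 (SE 0.166, adjusted p = 0.864 by limma) was smaller than the range within wild type and turned to -0.07 with common-median scaling. Bcl2l1 differed by -0.10 and Bcl2l2 by 0.02. Further, dimmer Bcl2l2 probes gave -0.09, -0.22 and -0.07. The groups did not overlap for the probe at -0.22, which was detected on 5 arrays. The group's median was -0.04, with 2 genes on either side of 0.

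Among the pro-death genes Bax and Pmaip1 read higher in the knockout, below the threshold for a call. Bax, which forms pores in the mitochondrial outer membrane, read 11.59, 11.68 and 11.62 in wild type and 11.95, 11.91 and 11.82 in the knockout. All 3 knockout cultures lay above all 3 wild-type cultures. The difference was 0.26 (SE 0.107, interval 0.01 to 0.51), or 1.20-fold, with an unadjusted p of 0.042 and an adjusted p of 0.622 by limma.

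Pmaip1 encodes NOXA, a BH3-only protein that binds MCL1. It read 9.05, 9.01 and 9.77 in wild type and 9.61, 9.97 and 9.95 in the knockout. Wild-type culture 3 lay inside the knockout range, and the other two wild-type cultures lay below it. The difference of 0.57 (SE 0.223, interval 0.05 to 1.09) was the largest of any member, with an unadjusted p of 0.036 and an adjusted p of 0.620 by limma. A further probe, dimmer, gave 0.55 with groups that did not overlap. Without wild-type culture 3 the difference was 0.81, and without wild-type culture 2 it was 0.43.

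Bbc3, which encodes PUMA, a BH3-only protein that binds all pro-survival members, did not follow. Its brightest probe read 9.46, 10.00 and 9.39 in wild type and 9.25, 9.67 and 9.92 in the knockout, a difference of -0.005 (SE 0.224), while a pair of much dimmer probes gave 0.18 and 0.28 with groups that did not overlap. Bak1 and Bok, the relatives of Bax, differed by 0.20 and 0.16, Bad by 0.05, Bcl2l13 by 0.003 and Bid, which links death receptors to mitochondria, by -0.08. All 5 had overlapping groups by their brightest probe, while a further, dimmer Bok probe gave 0.17 with groups that did not overlap. In this group 6 of 8 genes were above 0 and 2 below, with a median of 0.11 that fell to -0.114 under common-median scaling, where the median of all genes was -0.173. The mean level over the 8 genes was 9.14, 9.20 and 9.26 in the wild-type cultures and 9.37, 9.35 and 9.32 in the knockout cultures. These means do not overlap either, and 3 of the 8 genes are also counted among the p53 targets. The largest differences in the group were those of Pmaip1 (0.57) and Bax (0.26), so the mean does not show a shift of all 8 genes. How often the mean of a list of this size separates was not counted. A list of other p53 targets, described below, separated in the opposite direction.

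The caspases and apoptosome genes were mixed. Casp8, the initiator caspase of death receptors, read 9.14, 8.995 and 8.88 in wild type and 9.20, 9.17 and 9.50 in the knockout. Every knockout culture was above every wild-type culture, though knockout culture 2 only just exceeded wild-type culture 1. The difference was 0.28 (SE 0.139, interval -0.04 to 0.61, adjusted p = 0.663 by limma), and a further Casp8 probe gave 0.31 with overlapping groups. Casp9, the initiator caspase of the apoptosome, read 8.41, 8.83 and 8.48 against 8.29, 8.33 and 8.60, groups that overlap, and differed by -0.17 (SE 0.156; adjusted p = 0.821 with limma). Apaf1, its scaffold, differed by -0.12, Cycs (cytochrome c) by -0.04 and Diablo, which releases caspases from their inhibitors, by 0.12. The group had 2 genes above and 3 below 0, and a median of -0.04.

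Several genes were read by more than 1 detected probe, which gives a check within each array. Of the 31 further probes for 21 members, 17 had the sign of the probe used and 14 the opposite one. Of these 21 members 10 had at least 1 probe of the opposite sign, while the other 14 members had a single detected probe. The 10 were Cdkn1a, Mdm2, Ccng1, Trp53inp1, Phlda3, Ei24, Tnfrsf10b, Bbc3, Bcl2l2 and Bcl2l13.

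A few members spread widely over the cultures without following genotype. Gdf15, a secreted stress cytokine, read 9.58, 8.87 and 9.22 in wild type and 9.69, 9.11 and 7.84 in the knockout, a range of 1.85 that exceeds that of 98.3% of all genes. Its lowest value was knockout culture 3, and the difference of -0.35 (SE 0.436) became 0.17 without that culture. Gadd45a, a stress-response gene linked to growth arrest and DNA repair, read 9.17, 9.71 and 9.25 against 8.96, 9.35 and 10.39.

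In Gadd45a the same knockout culture was the highest, the range of 1.43 exceeded that of 95.9% of genes, and the difference of 0.19 (SE 0.348) became -0.22 without it. Sesn1, a sestrin induced by p53 and by FOXO factors, read 8.05, 8.78 and 7.87 against 7.31, 8.10 and 8.60. Its range was 1.47, larger than that of 96.1% of genes, and its difference of -0.23 (SE 0.354) became 0.12 without knockout culture 1. The typical member was no more variable than other genes: the median range over the 6 cultures was 0.476 for members and 0.520 for all genes, and the narrowest was that of Bad, 0.243.

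**Figure D4:**
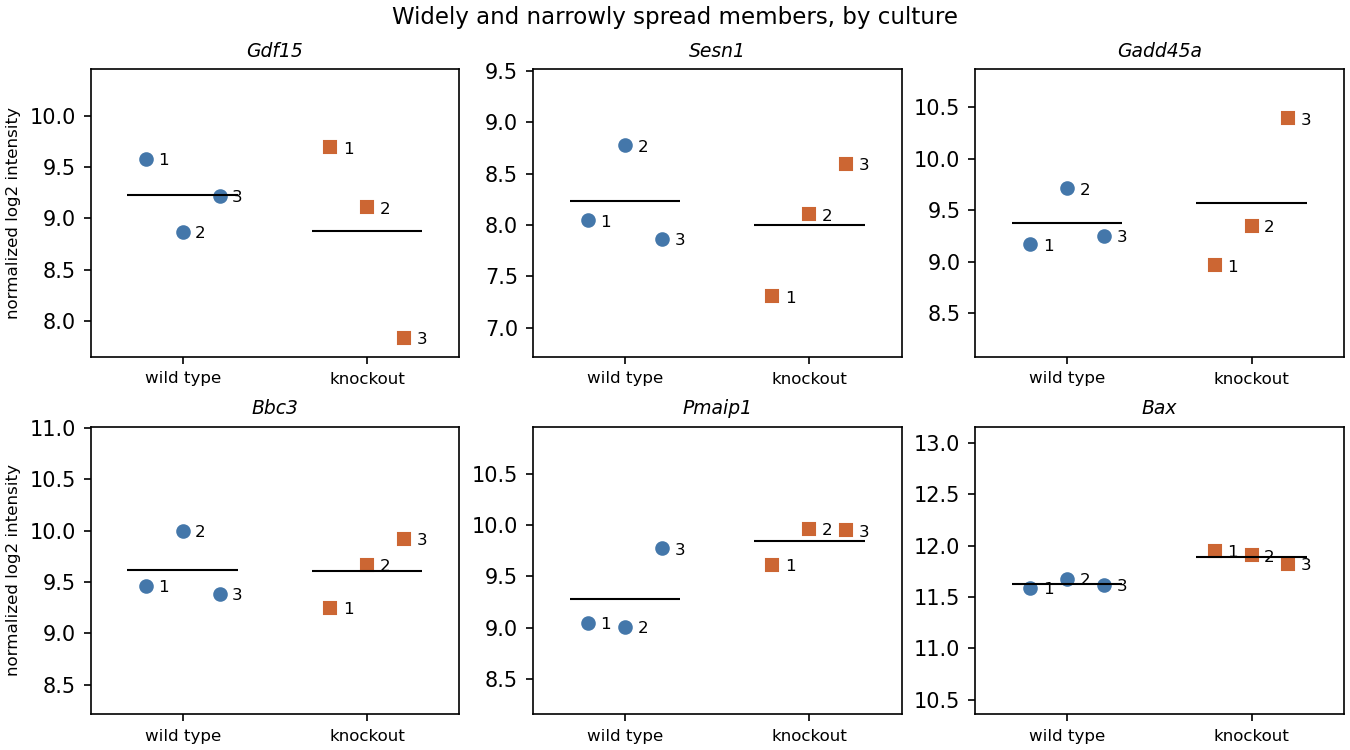
Normalized log2 intensity of 6 members in each culture (blue circles: wild type; orange squares: knockout; numbers: culture; bars: group means), on axes of equal span. Knockout culture 3 is lowest for Gdf15 and highest for Gadd45a and Sesn1 among the knockout cultures, and Bax is tight within each genotype.

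Genes of the same pathways outside the 41 were taken from lists chosen with earlier results of these data known, and none of them was called either. Groups were separated for 26.1% of 23 tested other p53 targets, 21.4% of 14 p53 regulators and 23.1% of 13 other BCL2 genes. The share was 25% each for 12 other caspases and inhibitors and 8 death receptors and adaptors, against 14.4% of all genes. In lists this short each share rests on few genes. Among other p53 targets 8 of 23 tested genes were higher and 15 lower, with a median of -0.07. Their mean level was 9.07, 9.07 and 9.09 in the wild-type cultures and 8.99, 8.996 and 8.96 in the knockout cultures, which do not overlap, with a mean difference of -0.097. Of the 6 with separated groups 4 were lower and 2 higher. The smallest p-values among those with separated groups were those of Tap1, a peptide transporter of antigen presentation (-0.38, adjusted p = 0.556 by limma), Ckap2, a spindle protein (-0.40, adjusted p = 0.557), and Ercc5, a nuclease of excision repair (-0.28, adjusted p = 0.608). These 3 were lower in all knockout cultures than in any wild-type culture, and the mitosis genes described above were lower as well. The separated genes that were higher were Triap1, an apoptosis inhibitor (0.30, adjusted p = 0.622), and Rps27l, a ribosomal protein paralog induced by p53 (0.18, adjusted p = 0.734); they were named after their values were seen. Among 14 tested p53 regulators 5 were higher and 9 lower (median -0.06). Rchy1, a ubiquitin ligase of p53, differed by 0.33, Ppm1d, the WIP1 phosphatase, by -0.20 and Ppp1r13b, the p53-binding protein ASPP1, by -0.21, each with separated groups. Cdkn2a, which encodes the MDM2 inhibitor ARF, had the largest difference of that list, 0.50 (SE 0.336), with overlapping groups; it was singled out after its value was seen.

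Among 13 other BCL2 family genes 6 were higher and 7 lower (median -0.01). Bnip1 (0.17) and Bag4 (-0.14), a chaperone regulator of the BAG family, had separated groups. Bcl2l11 (BIM) and Bmf are BH3-only proteins that bind the dynein light chains DYNLL1 and DYNLL2. Dynll1 was among the called genes and read 13.21, 13.08 and 13.11 in wild type against 11.22, 11.25 and 11.25 in the knockout, knockout minus wild type -1.89 (SE 0.106; adjusted p = 0.00157 with limma). Bcl2l11 read 6.74, 7.38 and 7.20 against 6.69, 7.22 and 8.10, with overlapping groups and a difference of 0.23 (SE 0.344). Bmf was detected on 2 arrays of each genotype, and its difference was 0.27 (SE 0.301). Their transcripts were thus not shown to differ while that of their binding partner fell, and binding between the proteins was not measured. Bcl2a1b, a pro-survival gene of blood cells, was lowest in p (-0.44, adjusted p = 0.512 by limma); it was detected on 3 wild-type arrays and 1 knockout array, and the macrophage and leukocyte genes described above were lower in the knockout as well, with Bcl2a1b not among them.

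Of 12 other caspases and inhibitors of apoptosis 5 were higher and 7 lower (median -0.08). Those with separated groups and the smallest p-values were Parp1, a caspase substrate (-0.31), Birc5, which encodes survivin and is expressed at mitosis (-0.30), and Aifm1, apoptosis-inducing factor (0.16). Of 8 death receptors and adaptors 3 were higher and 5 lower (median -0.04). Tnfrsf21, death receptor 6, read 7.23, 7.16 and 7.86 in wild type and 8.19, 8.03 and 8.60 in the knockout, the largest difference of the 5 lists at 0.86 (SE 0.227), with an adjusted p of 0.472 by limma. Tnfrsf1a, the TNF receptor, was lower in all knockout cultures (-0.25).

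**Figure D5:**
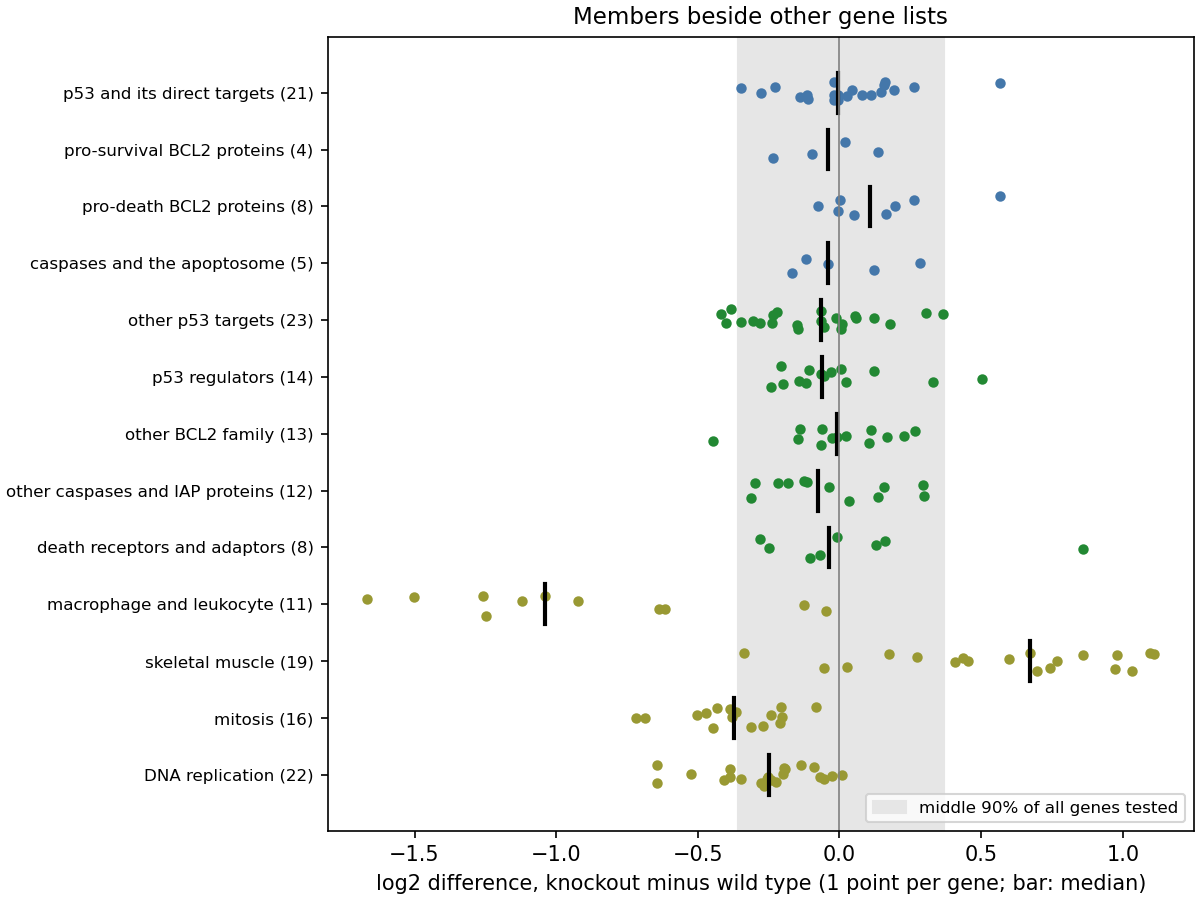
Log2 difference, knockout minus wild type, of each tested gene in the member groups (blue), 5 further pathway lists (green) and 4 marker lists (olive), with the number of genes in brackets, the median as a bar and the middle 90% of all genes in grey (-0.36 to 0.37). The apoptosis and p53 lists have medians between -0.08 and 0.11, while macrophage, mitosis and replication genes lie to the left and muscle genes to the right.

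As set out above, 2 arrays stood apart, the XX wild-type culture 1 and knockout culture 3. With both left out, no member passed the threshold, and the differences were 0.28 for Bax, 0.40 for Pmaip1, -0.24 for Zmat3 and 0.24 for Casp8. With any 1 of the 6 cultures left out, 4 to 9 members had separated groups, against 20.2% to 28.3% of all genes. With both left out, 9 of 35 members had separated groups, against 35.5% of all genes, since fewer cultures separate more easily. The direction of these 4 genes was the same in each of the 18 alternative settings, but so was that of 12 of the 35 members in total. Bax, Zmat3 and Casp8 have separated groups, and leaving out or weighting arrays cannot turn the sign of such a gene. Several other settings leave the difference itself unchanged, so the constant direction adds no evidence of a change. Under common-median scaling the members with separated groups were Casp9, Sesn2 and Trp53inp1, all lower in the knockout, in place of Bax, Zmat3 and Casp8.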

How the data were processed

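Gene expression was measured on 6 MouseWG-6 bead arrays, 1 per culture, grouped by genotype from the labels. The authors deposited mean bead intensity per probe, exported from GenomeStudio 1.6.0 without normalization, and a detection fraction in which 1 means detected, both per the file headers. The authors also deposited normalized values, treated here as a score, for which the submitters' processing notes name lumi; the transformation is not given in the sources. A further table of the same arrays, read as log2, was deposited and not used. The detection fraction gave a detection p as 1 minus its value. Intensities were background-corrected and quantile-normalized on the log2 scale with neqc (offset 16) of limma 3.58.1 in R 4.3.3, which draws array distributions together. Of 45281 probes 18221 reached a detection fraction of 0.95 on at least 3 arrays, and the brightest per target name gave 12824 genes. Of the per-array columns 24 were not used. Knockout minus wild type was tested with lmFit and eBayes over all genes, two-sided, with Benjamini-Hochberg adjustment and a threshold of 0.05. The number of arrays limits precision. The procedure was tested on simulated data first.

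The members, gene lists and the naming rule were chosen with earlier results of these data known. All 6 values are given for Trp53, Cdkn1a, Mdm2, each member with separated groups and the 2 smallest p-values per role. Named from the pathway lists are the 3 smallest p-values among separated genes, with Bcl2l11 and Bmf. Atmin, Dynll1 and Dynll2 serve as checks. Values of Gdf15, Gadd45a, Sesn1, Bbc3, Cdkn2a, Triap1 and Rps27l were added after they were seen. Cultures of equal replicate number were not treated as pairs in the main test. Their deviations from group means correlated at 0.230, -0.194 and -0.198 for numbers 1, 2 and 3. With 3 cultures per group these values cannot settle whether the embryos were paired. Alternatives covered background correction, scaling, probe filter and summary, gene names, variance model, replicate block and left-out arrays. Promoter windows came from RefSeq (GRCm38.p6).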

Additional observations from a re-analysis of the deposited data

How the results depend on the processing

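No member was called in any of the 18 alternative settings, where the lowest adjusted p of a member was 0.326 (Bax, array weights). Over all genes, 3 were called without background correction, 3 with the submitters' values, 4 with no filter on dim probes, 12 with array weights and 2 to 6 with 1 array left out, in place of 7. With the replicate number as a block 6 genes and 0 members were called, and 2 of 6 samples correlated best with their own number. Members with separated groups numbered 4 to 9 with 1 array left out and 9 without wild-type replicate 1 and knockout replicate 3. Atmin was -1.28 and no longer called with the mean of its probes; with 1 array left out it lay between -2.08 and -1.84, not called without wild-type replicate 1, 2 or 3.

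Scaling to a common median moved all genes by -0.173 and split calls 2 higher to 4 lower, in place of 4 to 3, and members 6 to 29, in place of 18 to 17. Medians became -0.185 for all members, -0.185 for p53 targets, -0.259 for pro-survival, -0.114 for pro-death, -0.185 for caspases, -0.296 for other p53 targets, -0.184 for p53 regulators, -0.150 for other BCL2 genes, -0.211 for other caspases and -0.234 for death receptors. The mean of detected probes gave 0.022 for all members, 0.055 for p53 targets and 0.159 for pro-death genes, array weights 0.024 and 0.052 for the first 2, and no filter 0.049 for pro-death genes. Without wild-type replicate 1 and knockout replicate 3 the medians were 0.098 for all members, 0.099 for p53 targets, 0.153 for pro-survival and 0.173 for pro-death genes. With 1 array left out they ranged from -0.014 to 0.054 for all members, -0.013 to 0.081 for p53 targets, -0.169 to 0.085 for pro-survival and 0.080 to 0.168 for pro-death genes, and -0.070 to 0.013 for caspases.

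The sign turned under common-median scaling for Trp53 -0.077, Sesn2 -0.20, Gadd45a -0.022, Plk2 -0.10, Tnfrsf10b -0.18, Fas -0.071, Bcl2 -0.071, Bcl2l2 -0.19, Bad -0.17, Bok -0.056, Bcl2l13 -0.24 and Diablo -0.099. The sign turned with the mean of detected probes for Ccng1 0.055, Bbc3 0.15, Trp53inp1 0.055, Tnfrsf10b -0.025, Bcl2l2 -0.091 and Bcl2l13 -0.0041. The sign turned with array weights for Ccng1 0.024, Bbc3 0.088, Bcl2l2 -0.018 and Bad -0.00061. The sign turned without wild-type replicate 1 and knockout replicate 3 together for Ccng1 0.17, Sesn2 -0.12, Gadd45a -0.33, Ei24 0.13, Gdf15 0.35, Polk 0.049, Rrm2b 0.12, Bcl2l1 0.15, Bad -0.034 and Cycs 0.067. With 1 array left out, signs turned within these ranges: Ccng1 -0.11 to 0.11, Bbc3 -0.16 to 0.19, Sesn1 -0.52 to 0.12, Sesn2 -0.046 to 0.16, Gadd45a -0.22 to 0.49, Trp53inp1 -0.28 to 0.013, Plk2 -0.053 to 0.18, Ei24 -0.20 to 0.11, Tnfrsf10b -0.053 to 0.13, Gdf15 -0.75 to 0.17, Polk -0.11 to 0.035, Rrm2b -0.11 to 0.057, Bcl2 -0.0064 to 0.24, Bcl2l1 -0.30 to 0.083, Bcl2l2 -0.099 to 0.11, Bak1 -0.014 to 0.33, Bad -0.026 to 0.092, Bcl2l13 -0.12 to 0.15 and Cycs -0.14 to 0.013. The causes were not tested.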

Other observations

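Some p53 targets and apoptosis genes, like many other genes on the array, followed one order over the cultures. This pattern was noticed in the values and then counted, so its share among the members carries no test. In it culture 2 is the highest of the wild-type cultures, and the knockout cultures ascend in the order 1, 2, 3; the numbers are names and have no order of their own. Of 35 members 7 showed it, or 20.0%: Apaf1, Bbc3, Casp9, Gadd45a, Sesn1, Sesn2 and Trp53inp1. So did 12 of 70 genes of the pathway lists, or 17.1%, among them Bcl2l11, Bmf, Ddit4 and Igfbp3, and 1639 of 12824 genes, or 12.8%. Bmf read 4.66, 5.43 and 5.08 in wild type and 4.80, 5.26 and 5.91 in the knockout. Igfbp3, a p53 target that binds insulin-like growth factors, read 8.63, 9.14 and 8.40 against 8.02, 8.50 and 9.68, and Ddit4, an inhibitor of mTORC1 known from hypoxia and stress, read 9.42, 10.02 and 9.85 against 9.22, 9.68 and 10.20. The mean of the 14 fibroblast markers showed the same order, with 10.21, 10.49 and 10.14 in wild type against 9.86, 10.07 and 10.75 in the knockout. What the cultures share along this order was not tested.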
